A study of Mus musculus with 6 samples.

Results

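Cxcl13, a chemokine ligand, and Cxcr5, its receptor, are 2 of the 55538 features counted in single peritoneal cells, and both were taken by their symbols from the table of raw counts and followed across macrophages, B cells and T/NK cells. The cells came from the peritoneal lavage of C57BL/6 mice, either MerTK +/+ or MerTK -/-, with 3 mice pooled in each library, and were left to adhere to a plate for an hour before non-adherent cells were rinsed off. Each genotype gave a library after a change of medium alone, another after 2 h and another after 6 h of contact with Jurkat cells, a human T cell line, that had been made apoptotic by UV light, so that there were 6 groups of 1 library each. MerTK is a receptor with which macrophages take up apoptotic cells, and the knockout is not restricted to macrophages by anything in the labels. The number at the end of a barcode, 1 to 6, could not be matched to a genotype or time from the labels, so no genotype or time was compared, and all values are given over the 6 libraries together and by library number.

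CXCL13 is secreted, binds CXCR5 on B cells and on follicular helper T cells, and draws them towards the follicles of lymphoid organs. In the serous cavities it is known as the signal with which macrophages hold B-1 cells, the self-renewing B cells that dominate the peritoneum, and B cells lacking CXCR5 home there poorly. The lymphotoxin β receptor, acting in part through non-canonical NF-κB, and TNF receptors are known to raise Cxcl13 in stromal cells of lymphoid organs.

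In the GENCODE vM21 annotation of GRCm38 (mm10), Cxcl13 (ENSMUSG00000023078.6) lies on chr5:95956951-95961068 on the plus strand, with 1 transcript of 4 exons and no overlapping gene. Cxcr5 (ENSMUSG00000047880.15) lies on chr9:44511787-44561877 on the minus strand, with 5 transcripts of 2 to 4 exons, and its 3′ end overlaps the 3′ end of Bcl9l on the opposite strand. Bcl9l had 349 UMIs (unique molecular identifiers, 1 for each RNA molecule caught) in all cells kept. The libraries were made with a 5′ kit, which reads each molecule from its 5′ end. The 250 bases before the RefSeq start of Cxcl13 (GRCm38.p6, chr5:95956689-95956938, plus strand) are shown because they lead into the end from which this ligand was counted, with the motif TATAAA in capitals.
Cxcl13 upstream window: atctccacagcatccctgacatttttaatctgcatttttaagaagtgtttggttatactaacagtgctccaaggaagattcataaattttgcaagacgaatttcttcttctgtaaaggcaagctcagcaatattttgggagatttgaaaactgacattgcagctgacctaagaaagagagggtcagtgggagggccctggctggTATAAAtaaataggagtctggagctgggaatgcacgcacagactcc
The motif TATAAA began 46 bases before that start. On either strand it was found in 12.4% of 32851 such windows of all genes. The E-box letters CAGCTG were also in the window of Cxcl13, as in 13.0% of windows, while CCAAT (33.8% of windows) and GGAAGT (19.7%) were not in it. No window of Cxcr5 was matched.

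Of 7760 barcodes, 7665 were kept, with 953 to 1608 cells in a library, library totals of 4234786 to 10287079 UMIs and library medians of 2783 to 5794 UMIs per cell. The labels call the samples peritoneal macrophages. By gates on summed UMIs, 2773 cells were macrophages (at least 2 of Csf1r, Adgre1 and Fcer1g, with at most 2 of Cd79a and Cd79b), 2948 were B cells (at least 4 of Cd79a and Cd79b) and 467 were T/NK cells (at least 2 of Cd3d, Cd3e and Nkg7). Another 200 barcodes met 2 gates and were set apart, and 1277 met none. All 5 B cell markers checked, Ms4a1 and Pax5 among them, were seen in at least 10% of the B cells, with a summed level of 876 CPM (a gene's UMIs per 1e6 UMIs of the class), against 4.86 CPM in macrophages. All 6 T cell markers passed 10% of the T/NK cells and none of 5 NK cell markers did, and only 3 of these cells had neither Cd3d nor Cd3e. The 5 NK cell markers summed to 55.5 CPM in T/NK cells and to 8.35 CPM (0.642 to 22.4 by library) in macrophages. The 5 dendritic cell (DC) markers summed to 14.1 CPM (9.13 to 24.4 by library) in macrophages. A total of 28 barcode sequences occurred in 2 libraries. Mertk was counted in macrophages of every library number, at 17.4 to 33.9 CPM, and no genotype was read from it. Since each group is 1 library and cells are not replicates, no p-value is given. Intervals are exact 95% intervals and cover counting error only.

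Among the adherent lavage cells captured here, most Cxcl13 was counted in macrophages and most Cxcr5 in B cells. Tissue of the cavity wall was not sampled. Macrophages held 91.8% of the 622 Cxcl13 UMIs of the cells kept, and B cells held 77.6% of the 2031 Cxcr5 UMIs. Cxcl13 stood at 41.4 CPM (38.1–45.0) in macrophages and at 0.974 CPM (0.577–1.54) in B cells, and no UMI was found in T/NK cells, where a count of 0 allows up to 2.08 CPM. Cxcr5 stood at 85.2 CPM (81.1–89.6) in B cells, at 20.1 CPM (13.5–28.9) in T/NK cells and at 1.16 CPM (0.664–1.89) in macrophages. These patterns were known when the genes were chosen and are given as a description. UMI counts of a 5′ kit are not divided by gene length, and levels are compared here between cells, not between genes.

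**Figure D1:**
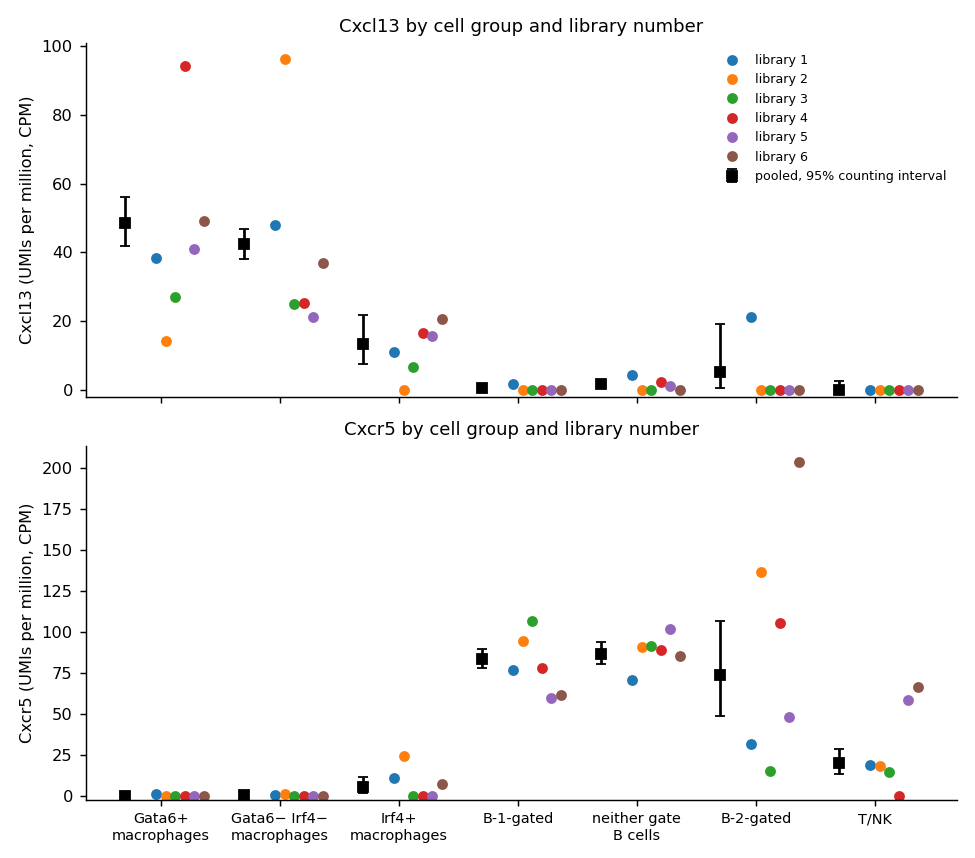
Cxcl13 (top) and Cxcr5 (bottom) in CPM on linear axes for 7 groups of cells, with coloured points for the library numbers and a black square with its exact Poisson 95% interval for all libraries together. Cxcl13 is highest in Gata6-positive macrophages (48.6 CPM) and in macrophages with neither Gata6 nor Irf4 (42.3 CPM), and Cxcr5 in the 3 B cell groups, where the B-2-gated points scatter from 15.6 to 204 CPM.

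Among macrophages, Cxcl13 in libraries 1 to 6 was 43.3, 65.6, 21.0, 43.6, 26.9 and 34.0 CPM, from 188, 118, 29, 148, 35 and 53 UMIs. Library 2 was highest and its interval (54.3–78.6 CPM) lay above those of all others, while that of library 3, the lowest, overlapped those of libraries 5 and 6 and lay below those of libraries 1 and 4. The intervals of libraries 1, 4, 5 and 6 all overlapped. In B cells of the same libraries, Cxcl13 was 3.04, 0, 0, 0.979, 0.463 and 0 CPM, so that macrophages were higher in all 6 and the groups did not overlap. The ratio over all libraries was 42.6-fold (26.7–72.3). Without library 1 it was larger, at 7.14 against 5.41 on the log2 scale. Over the macrophage and B cell table as a whole, 18.7% of 9389 features were at least 2-fold higher in macrophages and higher in all 6 libraries, and Cxcl13 was among them.

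The Cxcl13 counted in B cells lay with macrophage genes. It came from 10 cells, 7 of them in library 1, and 8 of the 10 had at least 2 UMIs of Csf1r, Adgre1 and Fcer1g, which was the case for 3.43% of all B cells. Those 8 were deep cells, with 7729 to 17695 UMIs each. In the 101 B cells with at least 2 such UMIs, Cxcl13 was at 17.9 CPM (10.2–29.0), against 0.114 CPM (0.0138–0.411) in the other 2847. Scrublet, a doublet caller, marked 1 of the 10.

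Cxcl13 UMIs were seen in few macrophages and were concentrated in fewer. A UMI was present in 184 of 2773 macrophages, or 6.64% (5.74–7.63%), at a median depth of 4426 UMIs per cell, and in 10 of 2948 B cells, or 0.339% (0.163–0.623%), at a median of 5416. With every cell thinned to 1500 UMIs the shares were 3.57% (2.90–4.34%) and 0.172% (0.0558–0.401%). Of the 184 cells, 86 had a single UMI, 50 had 3 or more and together held 68.1% of the macrophage total, and 16 had 10 or more. The highest cell, in library 1, had 34 UMIs, and the 10 highest held 29.4% of the UMIs. In all, 24 cells, 0.865% of macrophages, carried 50% of them. The cells with 10 or more UMIs numbered 5, 4, 0, 6, 0 and 1 in libraries 1 to 6, so that libraries 3 and 5, the lowest in CPM, had none. The Poisson intervals above treat UMIs as independent and do not cover this spread between cells. Without the 10 highest cells the macrophage level was 29.3 CPM.

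**Figure D2:**
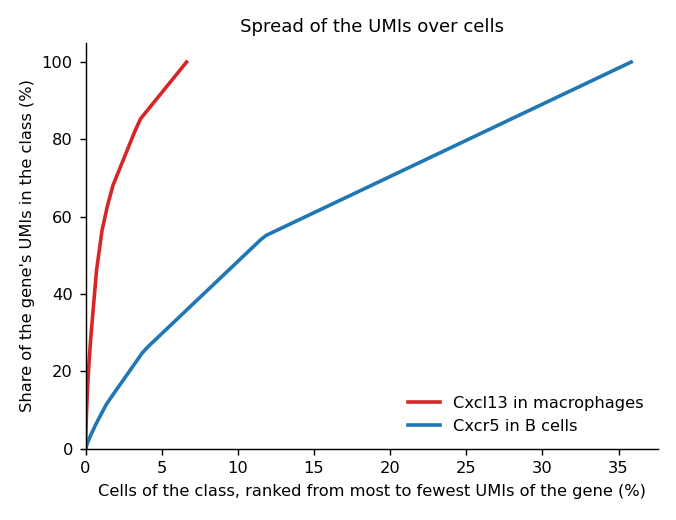
Cumulative share of a gene's UMIs (vertical, %) against cells of the class ranked from most to fewest UMIs of that gene (horizontal, %), for Cxcl13 in 2773 macrophages and Cxcr5 in 2948 B cells. The Cxcl13 curve reaches 50% within 0.865% of the cells and the Cxcr5 curve within 10.4%.

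The receptor was spread far more evenly over its class. A Cxcr5 UMI was seen in 1056 of 2948 B cells, or 35.8% (34.1–37.6%), against 11 of 2773 macrophages, or 0.397% (0.198–0.709%). Thinned to 1500 UMIs the shares were 11.6% (10.5–12.9%) and 0.149% (0.0405–0.380%). Of the 1056 cells, 67.2% had 1 UMI, the highest had 7, and the 10 highest held 3.49% of the total. By library, Cxcr5 in B cells was 72.3, 93.7, 102, 84.5, 77.3 and 73.5 CPM for libraries 1 to 6. Library 3 was highest and library 1 lowest, the intervals of neighbours in that order overlapped, those of the highest (92.2–113 CPM) and the lowest (64.8–80.6 CPM) did not, and the span over libraries was narrower than that of Cxcl13 in macrophages. B cells were above macrophages in all 6 libraries, by 73.4-fold (45.1–129) over all of them, and 22.1% of 9389 features were at least 2-fold higher in B cells and higher in every library.

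Macrophages of the peritoneum come in 2 kinds, large (LPM) and small (SPM). GATA6 is the transcription factor that marks the resident LPMs, and IRF4 one that marks the SPMs, which present antigen and are renewed from the blood. Splitting the macrophages by 1 UMI of either gene gave 635 Gata6-positive cells, 255 Irf4-positive cells, 22 with both and 1861 with neither. The 6 LPM markers (Timd4, Icam2, Selp, Vsig4, Prg4, Garnl3) summed to 2271 CPM in Gata6-positive and 404 CPM in Irf4-positive cells, with library ranges of 1312 to 2905 and 184 to 987 CPM, and Garnl3 was at 0 in the latter. The 6 SPM markers (Ccr2, H2-Ab1, Cd74, Itgax, Fcrls, Retnla) summed to 2259 CPM and 18769 CPM, with ranges of 262 to 3944 and 9584 to 25977 CPM, and Fcrls was at 0 in the former. Macrophages with neither gene lay between, at 1576 CPM (943 to 1877) of LPM and 6241 CPM (2332 to 11093) of SPM markers. Their median depth was 4139 UMIs, against 5519 in Gata6-positive and 4038 in Irf4-positive cells. In them, Gata6 or Irf4 that went undetected was not told apart from absence.

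Cxcl13 was higher in the Gata6-positive cells, at 48.6 CPM (41.9–56.1) from 185 UMIs, than in the Irf4-positive cells, at 13.3 CPM (7.63–21.7) from 16 UMIs. By library the Gata6-positive cells had 38.4, 14.3, 27.2, 94.3, 41.1 and 49.2 CPM, and the Irf4-positive cells 11.1, 0, 6.62, 16.6, 15.6 and 20.5 CPM. The Gata6-positive cells were higher within every library, although the 2 ranges overlapped across libraries, library 2 being low and library 4 high among the Gata6-positive values. The ratio was 3.64-fold (2.18–6.51), and in the 5 libraries where both groups had a UMI it ran from 1.26 to 2.50 on the log2 scale. Few cells carried it, since 8 of the 635 Gata6-positive cells held 50% of their Cxcl13 UMIs, and without the 10 highest macrophages the ratio was 1.34 (0.59–2.19) on the log2 scale in place of 1.87. In this comparison 4.15% of 8819 features were at least 2-fold higher in Gata6-positive cells and higher in every library. Most libraries gave 3 or fewer UMIs in Irf4-positive cells, and 88 of the 185 Gata6-positive UMIs were of library 4, without which the Gata6-positive level was 33.8 CPM.

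The Irf4-positive cells stood below the macrophages with neither gene as well. The latter had 42.3 CPM (38.1–46.9) of Cxcl13, with 47.8, 96.3, 25.0, 25.1, 21.3 and 36.8 CPM in libraries 1 to 6, against which Gata6-positive cells were higher in 4 libraries and lower in 2. Their pooled ratio was 0.20 on the log2 scale, with an interval from -0.06 to 0.46 that holds 0. Against Irf4-positive cells, those with neither gene were 3.17-fold (1.93–5.61) higher, and higher in 6 of 6 libraries. The interval of the ratio held 1 in libraries 3, 4, 5 and 6, where Irf4-positive cells had 2, 3, 1 and 8 UMIs. The share of all features higher in every library was not counted for this comparison. The 22 cells with both genes had 32.6 CPM (10.6–76.0) from 5 UMIs, an interval that overlaps the other 3 groups. Shares with a UMI after thinning were 4.28% (2.84–6.16%) in Gata6-positive, 3.46% (2.67–4.42%) in cells with neither and 2.43% (0.897–5.21%) in Irf4-positive cells, so the shares were not told apart at this depth.

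Irf4 is also a B cell gene, and B cell markers were higher in the Irf4-positive group. The 5 B cell markers, none at 0, summed to 24.2 CPM there (12.2 to 44.2 by library), against 2.63 CPM (0 to 8.94) in Gata6-positive cells. DC markers summed to 28.4 CPM (16.6 to 49.0) with Xcr1 and Clec9a at 0, against 8.14 CPM (3.88 to 10.9) with Flt3 and Xcr1 at 0. The 6 mesothelial and stromal markers summed to 199 CPM (24.5 to 420) in Irf4-positive cells, where Msln, Upk3b, Krt19 and Col1a1 were at 0 and Pdpn and Il33 made up the sum, against 13.9 CPM (1.79 to 109) in Gata6-positive cells, where all but Pdpn were at 0. Markers higher in the Gata6-positive cells were Mfge8 and Clu, listed for follicular dendritic cells, which summed to 39.1 CPM (28.6 to 48.8 by library) against 10.01 CPM (0 to 16.6) with Clu at 0 in the Irf4-positive cells. Of the neutrophil markers S100a9 and Ly6g were at 0 in both groups, and S100a8 was at 28.4 CPM (0 to 59.0) against 10.01 CPM (0 to 27.7). The 5 NK cell markers were at 0 in both groups and summed to 13.3 CPM (1.05 to 38.7 by library) in macrophages with neither gene. The part of these genes in the Cxcl13 difference was not tested. In the 239 Irf4-positive cells without a Cd79a or Cd79b UMI, Cxcl13 was at 12.7 CPM (6.95–21.3), against 13.3 CPM in all 255. Requiring 2 UMIs of Gata6 or Irf4 gave 36.9 and 5.99 CPM.

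The macrophages that carried Cxcl13 had more LPM and fewer SPM transcripts than those that did not. All 6 LPM markers were higher in the 184 cells with a Cxcl13 UMI than in the 2589 without, and all 6 SPM markers were lower, not all of them clearly. Over the 5073 features at 20 CPM or more, the median log2 ratio was 0.0025. The shares of features higher or lower by any amount were not counted. Timd4, a phosphatidylserine receptor of resident macrophages, had 77.9 against 43.2 CPM and Selp 251 against 142 CPM, each higher in 5 of 6 libraries, while Icam2 (70.6 against 66.9 CPM) and Prg4 (1508 against 1349 CPM) differed little. Icam2 and Prg4 were each higher in 4 of 6 libraries, and the log2 interval of Icam2 ran from -0.30 to 0.44. Garnl3, with 18 UMIs in the cells with Cxcl13, was higher in 3 libraries and lower in 3. Of the SPM markers, Ccr2 and Fcrls had 5 and 1 UMIs in those cells. Retnla, a product of alternatively activated macrophages, had 326 against 1241 CPM, Cd74 1514 against 4199 CPM and H2-Ab1 390 against 971 CPM, each lower in all 6 libraries. Gata6 itself had 86.2 against 75.8 CPM, with an interval on the log2 scale from -0.16 to 0.51. The cells with a UMI were somewhat deeper, with medians of 4898 and 4409 UMIs, and being picked by 1 detected molecule they are a sample of the cells that transcribe the gene.

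**Figure D3:**
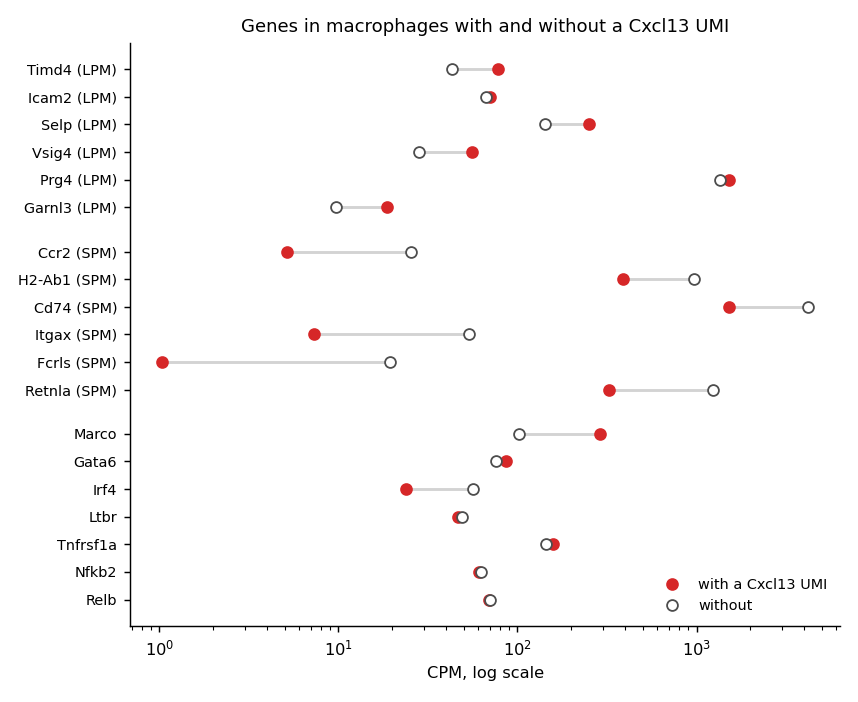
Level in CPM (log axis) of LPM markers, SPM markers and 7 other genes in the 184 macrophages with a Cxcl13 UMI (filled) and in the 2589 without (open). All LPM markers sit to the right in the cells with Cxcl13 and all SPM markers to the left, and Ltbr, Tnfrsf1a, Nfkb2 and Relb lie close together.

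Of 5073 features at 20 CPM or more, 4 (0.0788%) were at least 2-fold higher in the cells with Cxcl13 and higher in every library, and 37 (0.729%) were lower by the same rule. Among the genes that were higher were Marco, Calml4 and Gdf15. Marco, a scavenger receptor of macrophages, stood furthest apart, with 291 against 102 CPM. Among the lowest were the chemokine genes Ccl5 (4.15 against 71.7 CPM) and Ccl22 (7.27 against 59.2 CPM) and the integrin Itgax (7.27 against 53.5 CPM). The part of NK cells or DCs within the macrophage gate in these differences was not tested. Taken the other way, the 463 macrophages with a Marco UMI had 91.4 CPM of Cxcl13 (79.9–104), against 30.5 CPM (27.4–33.9) in those without. By library the cells with Marco had 59.5, 171, 92.0, 95.1, 45.8 and 170 CPM and those without had 38.7, 43.7, 14.3, 29.3, 23.6 and 19.2 CPM, so that the 2 sets did not overlap. Cells with Retnla had 18.2 CPM of Cxcl13 (14.5–22.7) and those without 52.5 CPM (47.9–57.3), and the cells with Retnla were lower in 6 of 6 libraries. Marco, Retnla and the leading genes were picked after their values were seen, so the splits by Marco and Retnla restate the same co-occurrence. How many other genes would split the libraries in this way was not counted.

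Cxcl13 was next compared with all features over 42 sums of cells, the 6 libraries by 3 macrophage, 3 B cell and 1 T/NK group. The 5 features most like it by Pearson correlation of log2(CPM + 1), among 9732 features, were Marco (r = 0.97), Fzd1 (0.96), Cald1 (0.95), Ptges (0.95) and Camk1 (0.94). Those most like Cxcr5 were Igkc (0.94), Tnfrsf13c (0.93), Ikzf3 (0.93), Ebf1 (0.93) and H2-Ob (0.92). Each was higher in B cells than in T/NK cells or macrophages, although Ikzf3 was at 76.3 CPM in T/NK cells against 192 CPM in B cells. The 2 members ran against each other, with r = -0.79. The sums share libraries and differ foremost in cell class, so these values are a description. Of the RefSeq windows matched for the 5 genes most like Cxcl13, those of Fzd1 and 1 of the 2 for Cald1 held TATAAA, and none held CAGCTG.

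Among B cells, Cxcr5 did not separate the B-1 gate from the B-2 gate. B-1 cells here are those with a UMI of Bhlhe41, Zbtb32 or Cd5 and none of Fcer2a (1290 cells), and B-2 cells, the conventional recirculating kind, those with Fcer2a and none of the 3 (88 cells). Another 66 met both gates and 1504 neither. Cxcr5 was at 84.0 CPM (78.4–89.8) in B-1-gated, 73.9 CPM (49.1–107) in B-2-gated, 87.0 CPM (80.5–93.9) in cells meeting neither gate and 91.3 CPM (68.9–119) in cells meeting both. In the order of these levels, no neighbours differed beyond their intervals.

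By library, B-1-gated cells had 77.3, 94.6, 107, 78.4, 59.8 and 61.7 CPM and B-2-gated cells 31.9, 137, 15.6, 106, 48.3 and 204 CPM, the latter from 1 to 10 UMIs each. The B-1-gated cells were higher in 3 libraries and lower in 3. The ratio was 0.18 on the log2 scale with an interval from -0.36 to 0.78, so that the counts allow B-1-gated cells to hold from 0.78 to 1.72 times the level of B-2-gated cells. Shares with a UMI were 40.5% in B-1-gated and 25.0% in B-2-gated cells at median depths of 6848.5 and 3043.5 UMIs, and 11.1% (9.44–12.9%) and 11.6% (5.72–20.3%) after thinning. Here 2.49% of 9277 features were at least 2-fold higher in B-1-gated cells and higher in every library, and 0.679% in B-2-gated cells. Cxcr5 was in neither set.

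The 2 gates were checked on markers they did not use. The B-2 markers Ighd (420 against 67.7 CPM), Fcmr (209 against 108 CPM) and Cr2 (18.5 against 2.41 CPM) were higher in B-2-gated cells. Of the B-1 markers, Cd9 (185 against 100 CPM), Plscr1 (47.2 against 34.3 CPM), Itgam (17.5 against 13.2 CPM) and Pstpip2 (8.74 against 2.64 CPM) were higher in B-1-gated cells and Spn was not (40.7 against 47.5 CPM). The B-2-gated cells held 378747 UMIs in all, so their low values rest on few UMIs. The 5 B-1 markers summed to 299 CPM (228 to 475 by library) in B-1-gated and 198 CPM (60.6 to 407) in B-2-gated cells. These ranges overlap, and the same markers summed to 1439 CPM in macrophages, so they check the B-1 gate only weakly. Split by Ighd in place of the gates, B cells with a UMI had 86.4 CPM of Cxcr5 (79.7–93.7) and those without 84.5 CPM (79.3–90.0). The 83 B cells with Cr2, the complement receptor of follicular and marginal zone B cells, had 102 CPM (75.9–134) against 84.8 CPM (80.6–89.1).

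B cells with a Cxcr5 UMI were deeper than those without, with medians of 6832 and 4783.5 UMIs. Of 5179 features at 20 CPM or more, 1 (0.0193%) was at least 2-fold higher in cells with Cxcr5 and higher in every library, and 16 (0.309%) were lower. The higher gene was Il2rb, a chain of the receptors for IL-2 and IL-15, with 58.1 against 28.7 CPM. Tmem51 followed with 50.5 against 27.8 CPM, higher in 6 of 6 libraries but short of 2-fold. The chemokine receptors Ccr6 (96.8 against 76.6 CPM) and Ccr7 (96.3 against 81.4 CPM) were higher in 5 and 3 libraries. Among the lowest were the macrophage genes Cd14 (18.5 against 74.98 CPM) and Lyz2 (114 against 347 CPM). The 101 B cells with 2 or more macrophage gate UMIs had 45.8 CPM of Cxcr5 (32.9–62.2), against 87.2 CPM (82.9–91.7) in the rest.

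The Cxcr5 counted in T/NK cells lay with B cell genes. By library it was 19.1, 18.8, 14.7, 0, 59.0 and 66.6 CPM, from at most 8 UMIs each, and B cells were higher in 6 of 6 libraries, by 4.24-fold (2.94–6.35) over all of them. Of the 29 UMIs, 19 were in the 35 T/NK cells that had a Cd79a or Cd79b UMI, which were at 92.7 CPM (55.8–145), a level whose interval holds that of B cells. The other 432 were at 8.09 CPM (3.88–14.9), from 10 UMIs in 8 cells, above the 0.521 CPM (0.209–1.07) of macrophages without either gene. Cells with Cd4 and no Cd8 gene had 19.7 CPM (7.92–40.6), those with Cd8a or Cd8b1 and no Cd4 had 7.14 CPM (1.47–20.9) and those with neither had 28.5 CPM (17.2–44.6), and these intervals overlap. The 5 B cell markers, none at 0, summed to 37.5 CPM in T/NK cells (6.52 to 289 by library), against 876 CPM in B cells. When barcodes meeting 2 gates were counted in both classes, the T/NK value was 44.3 CPM and the log2 ratio of B cells over T/NK cells 0.93 in place of 2.08.

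**Figure D4:**
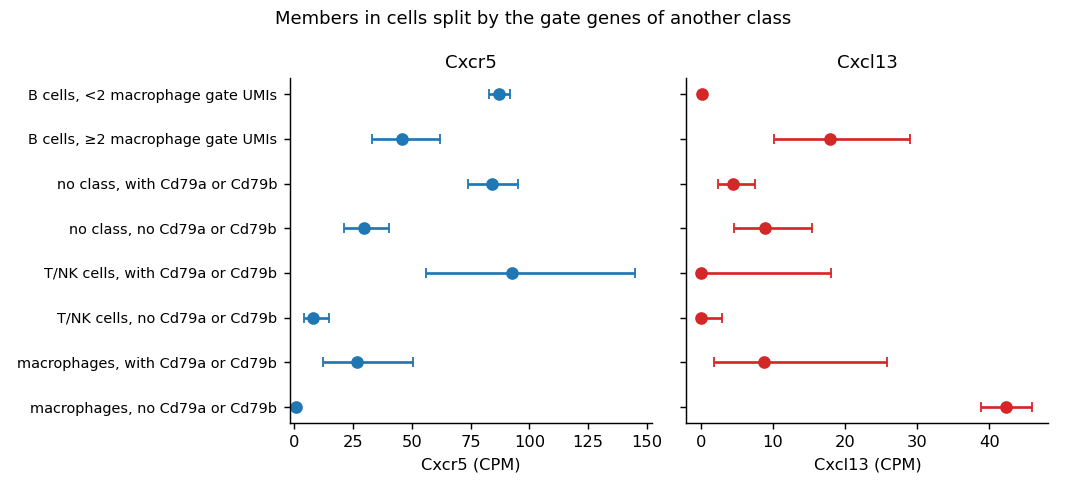
Cxcr5 (left) and Cxcl13 (right) in CPM on linear axes, with exact Poisson 95% intervals, in B cells, unclassed cells, T/NK cells and macrophages split by the gate genes of another class. Cxcr5 is at 92.7 CPM in T/NK cells and 84.1 CPM in unclassed cells with Cd79a or Cd79b, and Cxcl13 in B cells is at 17.9 CPM with macrophage gate genes and 0.114 CPM without.

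The cells that no gate took were split by Cd79 genes in the same way. The 697 of them with a Cd79a or Cd79b UMI had 84.1 CPM of Cxcr5 (73.9–95.2) and the other 580 had 29.5 CPM (21.1–40.2). Cxcr5 in macrophages came from 16 UMIs in 11 cells, of which 6 had Cd79a or Cd79b, 8 had Ighm and 6 had Irf4, whereas 2.09% of all macrophages had Cd79a or Cd79b and 2.63% had Ighm. Of the 11, 3 had Ccr7, up to 13 UMIs in a cell. The Irf4-positive macrophages held 7 of the 16 UMIs, at 5.84 CPM (2.35–12.03), and 3 of these lay in cells without Cd79a or Cd79b, at 2.72 CPM (0.562–7.96). No macrophage and only 2 cells in all had a UMI of both Cxcl13 and Cxcr5.

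Of the other genes that place lymphocytes, the 5 chemokines fixed as a list were almost absent save for Cxcl16. Cxcl16, a membrane-bound chemokine, was at 107 CPM in macrophages and 5.03 CPM in B cells and was the only one of the 5 measured (5 CPM or more). Cxcl12 had 15 UMIs in macrophages and none in B or T/NK cells, and no UMI of Ccl19, Ccl21a or Ccl20 was counted in the 3 classes. Beside these, Cxcl13 had 571 UMIs in macrophages.

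Of 8 receptors that place lymphocytes, 7 were measured, and 4 were at least 2-fold higher in B cells and 1 in macrophages, each in all 6 libraries, beside 22.1% and 18.7% of all features. Their median was -1.74 on the log2(CPM + 1) scale of macrophages over B cells, against -0.14 for all features. Ccr6, the receptor of CCL20, was at 85.5 CPM in B cells and 0.726 CPM in macrophages, and Gpr183, which guides B cells along oxysterols, at 93.3 and 5.30 CPM. Ccr7, the receptor for CCL19 and CCL21, was at 87.9 and 25.6 CPM. Ackr3, a scavenger of CXCL12, was at 39.6 CPM in macrophages and 1.082 CPM in B cells. Of the 3 enzymes that make or break down the ligand of GPR183, only Ch25h, which makes 25-hydroxycholesterol, was measured, at 16.9 CPM in macrophages and with no UMI in B or T/NK cells.

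**Figure D5:**
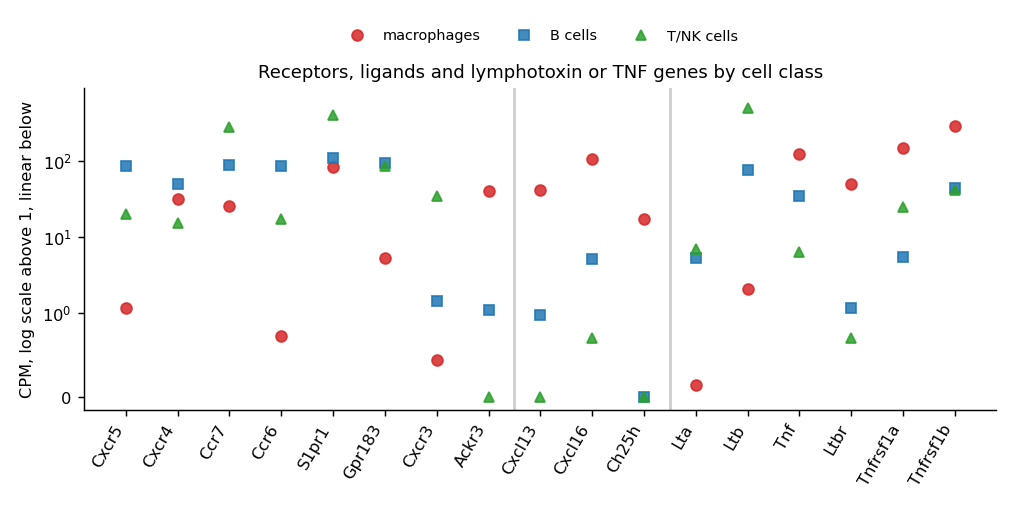
Pooled level in CPM (log axis above 1, linear below) of receptors (left), ligands and a ligand enzyme (middle) and lymphotoxin and TNF genes (right) in macrophages, B cells and T/NK cells. Cxcr5, Ccr6 and Ltb are low in macrophages, and Cxcl13, Cxcl16, Ch25h and Ltbr are low in both lymphocyte classes.

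Of 10 genes of lymphotoxin, TNF and non-canonical NF-κB, 9 were measured. Of these, 4 (Tnf, Ltbr, Tnfrsf1a, Tnfrsf1b) were at least 2-fold higher in macrophages and 1 (Ltb) in B cells. Each had the same direction in every library, beside 18.7% and 22.1% of all features. The median of the 9 was 0.64, against -0.14 for all features. Ltbr, the lymphotoxin β receptor, was at 48.8 CPM in macrophages and 1.14 CPM in B cells, and its ligand gene Ltb at 2.03 and 75.6 CPM, with 492 CPM in T/NK cells. Within macrophages most of these genes lay close together in cells with and without Cxcl13. Cells with and without a Cxcl13 UMI had 46.7 and 48.9 CPM of Ltbr, 158 and 144 CPM of Tnfrsf1a, 61.3 and 62.2 CPM of Nfkb2 and 69.6 and 70.5 CPM of Relb, whereas Tnf was at 85.1 and 126 CPM.

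The B cell survival factors BAFF and APRIL and their receptors formed a list of 5, of which 3 were measured against B cells. Tnfrsf13c, the BAFF receptor, was at 203 CPM in B cells and 2.47 CPM in macrophages, and Tnfrsf13b, which binds both factors, at 95.7 and 8.85 CPM. Tnfsf13, which encodes APRIL, was at 10.4 CPM in macrophages and 0.541 CPM in B cells. All 3 were at least 2-fold apart and kept their direction in 6 libraries. Of them, 2 were higher in B cells and 1 in macrophages, beside 22.1% and 18.7% of all features. Of 14 genes of chemokine receptor signalling, 13 were measured, 3 at least 2-fold higher in macrophages (Gnb1, Rgs10, Arrb2) and 5 in B cells (Gng2, Rgs14, Rgs16, Dock2, Dock8), beside 18.7% and 22.1% of all features and with a median of 0.24.

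Between Gata6-positive and Irf4-positive macrophages, the receptors S1pr1 (98.0 against 28.4 CPM) and Ackr3 (68.8 against 5.003 CPM) were at least 2-fold higher with Gata6 in every library, as was Rgs10 (321 against 93.4 CPM), among 6 receptors and 12 signalling genes measured, beside 4.15% of all features. Of the 8 measured genes of lymphotoxin, TNF and non-canonical NF-κB, none passed 2-fold in either direction. A total of 5.41% of features were at least 2-fold higher in Irf4-positive cells and higher in every library, and of the lists these were Gng2, Rgs1, Rgs2, Rgs16, Dock2 and Tnfrsf13b. Rgs1 and Rgs2, of the list of chemokine receptor signalling, were at 782 against 131 CPM and 394 against 105 CPM. Tnfrsf13b was at 20.01 against 5.52 CPM, beside the B cell markers given above, and their part in this difference was not tested. Between the B cell gates, Ltb (222 against 50.01 CPM) was at least 2-fold higher in B-2-gated cells and Rgs16 (31.1 against 10.6 CPM) in B-1-gated cells. Both kept their direction in every library. They were 1 of 8 and 1 of 13 genes measured in their lists, beside 0.679% and 2.49% of all features.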

How the data were processed

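Peritoneal cells were profiled by 10x Genomics 5′ single-cell RNA-seq, 1 library for each of 6 groups. Reads were mapped by the authors to hg38 and mm10 together, with STAR and Cell Ranger (version 2.2 and Seurat 3.0 are named in the submitters' processing notes, while the study's methods name other versions of both), and they deposited raw UMI counts of mouse genes per cell, not normalized. The annotation is not given in the sources used here. Library numbers were not matched to samples.

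The filter kept cells of 500 genes or more, with no more than 10% mitochondrial UMIs and log genes divided by log UMIs not under 0.8. UMIs were summed by gated class and divided by the class total (CPM), with exact Poisson, binomial and conditional intervals (scipy 1.17.1, Python 3.11.15). The Poisson and conditional intervals were run on simulated Poisson counts, the model they assume. That run checks the code and does not cover UMIs concentrated in few cells, as those of Cxcl13 were. For a count of 0, the limit printed is that of 3 UMIs. A feature was past the fold when at least 2-fold apart with the same direction in 6 libraries, among features with a mean of 5 CPM or more in the compared groups, gate genes left out. Thinning drew 1500 UMIs per cell and left out shallower cells, 83 macrophages and 38 B cells. Scrublet in scanpy 1.11.5, at an expected rate of 0.01, marked 47 barcodes (0.606%), which were kept, and free RNA was not removed.

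The members and lists were chosen with earlier results of these data known. The genes named are the members, listed genes, the 5 features most alike by correlation, and others said to be picked after their values were seen. Some listed genes are not reported here.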

Additional observations from a re-analysis of the deposited data

How the results depend on the processing

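Of 202 values of 17 results under alternatives, 177 stayed within the interval of the reported value (within 1.5 times for counts of features), and 25 moved. No ratio whose interval leaves out 0 changed sign. The B-1 over B-2 log2 ratio of Cxcr5 (0.18), whose interval holds 0, had no stable sign: it was -0.22 by the mean over cells, -0.18 by the mean of the libraries, -0.03 without library 1 and -0.14 without library 3, and ran from -0.14 to 0.47 when each library was left out in turn.

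With at least 1000 genes per cell, Cxcr5 was seen in 37.7% of B cells. With thinning, Cxcl13 was seen in 3.57% of macrophages and Cxcr5 in 11.6% of B cells. With barcodes of 2 classes counted in each, Cxcr5 in T/NK cells was 44.3 CPM and its log2 ratio of B cells over them 0.93, and by means over cells and over libraries that ratio was 2.71 and 1.5. By the mean over cells, the log2 ratio of Cxcl13 in macrophages over B cells was 6.20. Splitting at 2 UMIs gave 36.9 and 5.99 CPM of Cxcl13 in Gata6-positive and Irf4-positive macrophages.

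Features past 2-fold numbered 366 (Gata6-positive), 231 (B-1-gated) and 1754 (macrophages), and 237, 82 and 1129 at a minimum of 20 CPM, while a minimum of 1 CPM gave 808 for the B-1-gated cells.

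Leaving out each library in turn gave 37.8 to 43.7 CPM of Cxcl13 in macrophages, 33.8 to 55.1 in Gata6-positive and 9.89 to 15.6 in Irf4-positive macrophages, and shares of 6.17 to 7.27%. Cxcr5 ran from 81.1 to 89.5 CPM and from 34.0 to 36.9% of B cells, from 77.7 to 87.1 CPM in B-1-gated, 58.9 to 87.8 in B-2-gated and 16.6 to 23.4 in T/NK cells. The log2 ratios ran from 1.40 to 2.30 (Gata6-positive over Irf4-positive), 4.95 to 7.14 (macrophages over B cells, the highest without library 1), 1.79 to 2.38 (B cells over T/NK cells) and 5.88 to 6.72 (B cells over macrophages). Counts ran from 407 to 486, 310 to 367 (the highest without library 2) and 1680 to 1836, with 5 rather than 6 libraries having to share a direction.

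Chosen after seeing the data were the following. Without the 10 highest cells, Cxcl13 was 29.3 CPM in macrophages and 33.8 in Gata6-positive ones. With B cells of fewer than 2 macrophage gate UMIs, the log2 ratio of Cxcl13 was 8.51. In T/NK cells with no Cd79a or Cd79b UMI, Cxcr5 was 8.09 CPM and the ratio 3.40.

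The cell classes compared share their library, and each ratio was also taken within each of the 6 libraries. No paired analysis was possible between genotypes or times because each group has 1 library, not matched to its number. Depth limits the B-2-gated values (28 UMIs), the Irf4-positive ones (16 UMIs) and those of T/NK cells (29 UMIs).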
